A study of Rattus norvegicus with 8 samples.

Results

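The SLC39 genes encode the ZIP transporters, and 10 of them formed the set described here, namely Slc39a1, Slc39a3, Slc39a4, Slc39a6, Slc39a7, Slc39a8, Slc39a10, Slc39a11, Slc39a13 and Slc39a14. The cells were NR8383, a line of rat alveolar macrophages first obtained by washing out the lung of a normal animal, and all groups share this 1 line. A gene was followed through the array probes assigned to one of its rat RefSeq transcripts, which gave 10 probes for 8 of the 10 genes among 45598 distinct probes on the array. Slc39a1 and Slc39a11 had 2 probes each, Slc39a3, Slc39a4, Slc39a6, Slc39a7, Slc39a8 and Slc39a14 had 1 each, and no probe was matched to Slc39a10 or Slc39a13, which were not analysed here. Cells were exposed for 4 h to ZnO at 16 µg/mL (ZnO 16, 4 arrays) or at 4 µg/mL (ZnO 4, 4 arrays), and the series' design describes the 4 replicates of a dose as biological. According to their labels, ZnO 16 cells had gone through 200 passages and ZnO 4 cells through 20, and the doses were hybridised on separate slides. Dose, slide, scan and passage number therefore cannot be told apart. Cells without ZnO were not analysed here.

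ZIP transporters move zinc into the cytosol, either across the plasma membrane or out of organelles, while the SLC30 (ZnT) family carries zinc the other way. Metallothioneins bind zinc within the cell, and the zinc-sensing transcription factor MTF1 switches on metallothionein and Slc30a1 genes through metal response elements. Slc39a7 (ZIP7) releases zinc from the endoplasmic reticulum and Golgi, and Slc39a11 and Slc39a13 are also placed on intracellular membranes. Slc39a1 and Slc39a3 are widely expressed importers of the plasma membrane, and Slc39a4 takes up dietary zinc in the intestine. Slc39a6 and Slc39a10 are close relatives at the plasma membrane, and Slc39a8 and Slc39a14 carry manganese, iron and cadmium as well as zinc.

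The promoters of Slc39a7 and Slc39a1 are shown because these members were higher at the higher dose relative to the rest of the array, so the choice follows the result. The metal response element was searched because zinc acts on several genes through it. Its part in the differences below was not tested. The sequences come from RefSeq, build GRCr8, and run 5′ to 3′ along the gene's strand from 250 bases before to 50 bases after the start of the gene. Slc39a7 lies at chr20:4824809-4825108 (plus strand) and Slc39a1 at chr2:178000869-178001168 (plus strand). Capitals mark matches on either strand to the core of the metal response element, searched as TGCACNC or TGCGCNC.
Slc39a7: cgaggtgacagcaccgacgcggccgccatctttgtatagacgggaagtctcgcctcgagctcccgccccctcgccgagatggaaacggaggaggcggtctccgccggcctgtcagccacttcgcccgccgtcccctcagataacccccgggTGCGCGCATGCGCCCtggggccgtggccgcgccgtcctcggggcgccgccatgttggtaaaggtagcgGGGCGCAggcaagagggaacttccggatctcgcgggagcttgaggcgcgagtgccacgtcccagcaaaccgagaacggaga
Slc39a1: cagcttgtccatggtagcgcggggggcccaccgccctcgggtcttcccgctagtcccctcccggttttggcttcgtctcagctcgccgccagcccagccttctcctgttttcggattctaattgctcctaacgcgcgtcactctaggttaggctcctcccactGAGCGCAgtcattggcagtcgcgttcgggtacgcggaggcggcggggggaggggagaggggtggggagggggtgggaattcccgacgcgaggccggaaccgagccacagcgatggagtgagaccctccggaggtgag
Slc39a7 has 2 RefSeq windows that overlap, of which 1 is shown, and the same 4 core matches lie in both. In the window shown, those starting 99 and 98 bases before the gene's start overlap on opposite strands. The other matches started 91 and 31 bases before it. The Slc39a1 window held 1 match, 87 bases before the start. At least 1 match was found in 24.2% of the 33469 promoter windows of the build and at least 4 in 0.439%. Promoters of 8 of the 10 members were matched, and 4 of these members had a core match, the other 2 being Slc39a11 and Slc39a13 with 2 matches each. Those of Slc39a11, starting 94 and 93 bases before the start, are 1 stretch read on both strands, while those of Slc39a13, at 84 and 18 bases, are separate. Slc39a3, Slc39a6, Slc39a8 and Slc39a10 had 0. Promoters of Slc39a4 and Slc39a14 were not analysed here. In the same windows Mt1 held 6 matches, Mt2A 4 and Slc30a1 2. The core is rich in G and C, and the Slc39a7 window was 69.3% G and C against a median of 51.7% over all windows. Of 3 other motifs searched, the STAT element TTCNNNGAA, which reads the same on both strands and was counted once per site, was matched 1 time in Slc39a8 and in no other member (8.87% of all windows). The GC box GGGCGGG was matched in Slc39a3, Slc39a6, Slc39a7, Slc39a11 and Slc39a13 (22.7%), and TGATGNAAN in no member (3.97%). These matches describe the letters of the windows and do not show that a factor binds there.

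Levels below are log2 of the processed signal after subtraction of the array's own 75th percentile, and differences are ZnO 16 minus ZnO 4 on that scale. Differences were fitted with limma over 13474 genes, each represented by the brightest of its probes that cleared the scanner's well-above-background flag on 3 or more arrays of 1 dose. Of these, 7986 had a gene symbol. The others go by the name the array gives their sequence, so more than 1 of them can belong to the same gene. Calls are at a Benjamini-Hochberg adjusted p under 0.05, and those of marker and other genes outside the set were made with 75th percentile scaling only. The 75th percentile of the processed signal was 374, 151, 190 and 381 on ZnO 16 replicates 1 to 4, against 516, 313, 479 and 428 on ZnO 4 replicates 1 to 4. ZnO 16 replicates 2 and 3 were thus the dimmest arrays. In bulk RNA, fewer cells of a type and less RNA per cell cannot be told apart. The percentile differed by -0.75 on the log2 scale (two-sided exact permutation p = 0.114 over 70 assignments). Of 12 macrophage markers 10 were above background, including Lyz2, Tyrobp and Csf1r, while the macrophage markers Marco and Adgre1 stayed at background throughout. Of these 10, Spi1 rose (0.81) and Cd68 (-1.74) and Itgam (-0.52) fell, and the summed relative signal of the list was 302.5 to 393 at ZnO 16 and 301 to 345 at ZnO 4. Lyz2 (mean level 7.37 at ZnO 16 and 7.35 at ZnO 4) and Tyrobp (7.14 and 6.88) make up most of that sum. It says little on the dimmer markers. None of 5 epithelial, 3 fibroblast or 1 measured B cell marker passed the filter, and of 4 T cell markers Cd4 alone did, with Cd3e and Cd8a at background. Of the endothelial markers Kdr was at background, while Pecam1 and Cdh5 were detected, and the summed relative signal of the list was 0.588 to 0.773 at ZnO 16 and 1.27 to 1.48 at ZnO 4. That sum is mostly Pecam1, which macrophages also express. Pecam1 fell by 1.08 (limma adjusted p = 0.000117). The part of these marker differences in the results below was not tested.

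Of the 8 members with a probe 7 were well above background on all 8 arrays and were tested. Slc39a7, Slc39a4 and Slc39a1 rose at 16 µg/mL relative to the 75th percentile, and 0 members fell, while 0 members were called without scaling or with spike-in scaling. The same 3 genes were those whose doses did not overlap, each with ZnO 16 above. Of all tested genes 41.7% were called, 19.8% higher and 21.8% lower, and 39.9% did not overlap between doses (18.5% with ZnO 16 above), so 3 of 7 lies close to the share of all genes. The differences of the 7 members ran between -0.25 and 0.76 with a median of 0.29, and 6 of them were positive, while the median over all tested genes was 0.01. The genes with the largest changes in these cells moved much further, between -5.60 and 7.01.

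**Figure D1:**
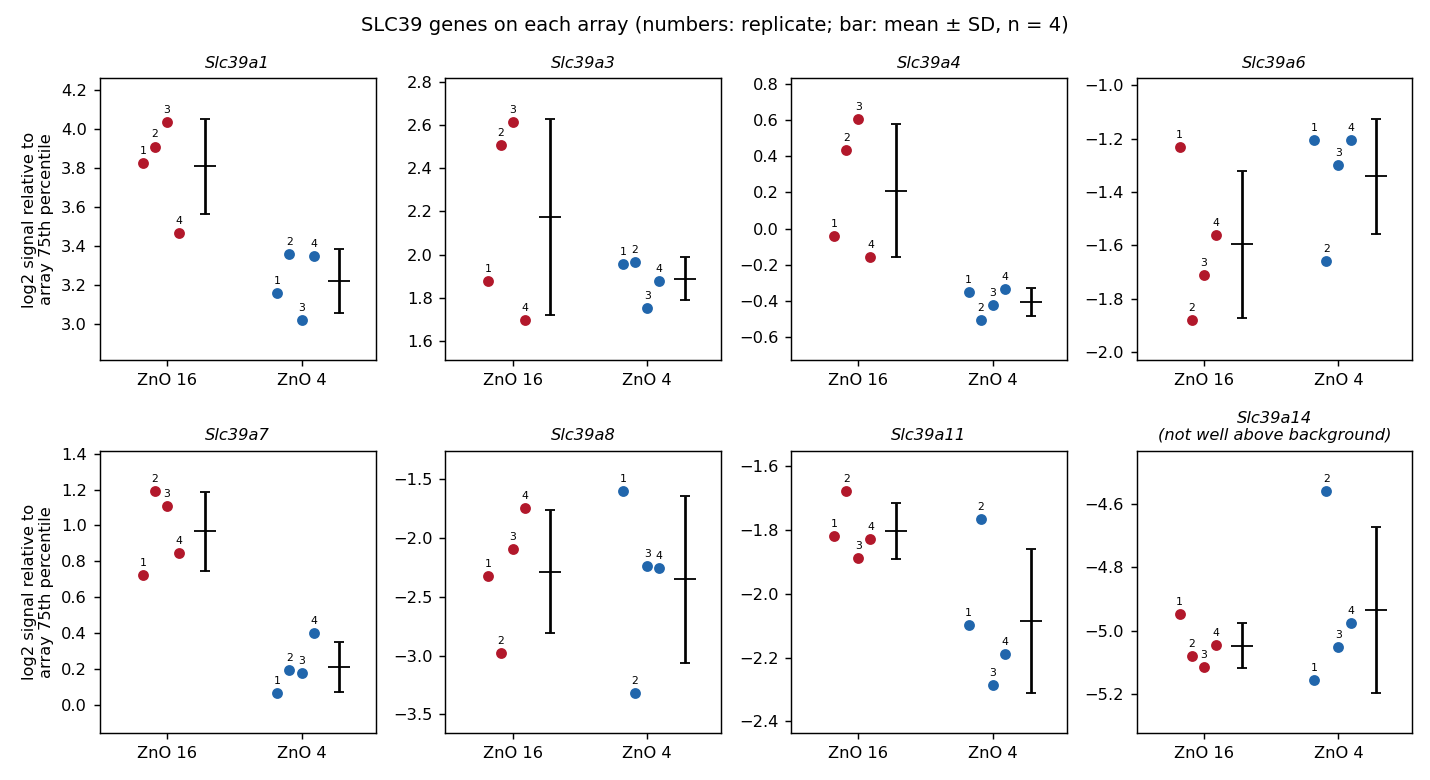
Level of each SLC39 gene with a probe on each array (y axes, log2 signal with the array's 75th percentile at 0, each panel with its own range), for ZnO 16 (red, left) and ZnO 4 (blue, right). Numbers beside the points are replicates and bars are mean ± SD (n = 4). The 2 doses do not overlap for Slc39a7, Slc39a4 and Slc39a1, and Slc39a14 stayed at background.

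Slc39a7, which releases zinc from the endoplasmic reticulum, had the largest difference of the 7. Its level was 0.72, 1.19, 1.11 and 0.84 on ZnO 16 replicates 1 to 4, against 0.07, 0.19, 0.17 and 0.40 on ZnO 4 replicates 1 to 4. Each ZnO 16 array lay above each ZnO 4 array, and the 2 dimmer ZnO 16 arrays gave the higher values. The means were 0.97 ± 0.22 at ZnO 16 and 0.21 ± 0.14 at ZnO 4 (SD, n = 4 each). Slc39a7 rose by 0.76 (SE 0.14, 95% interval 0.44 to 1.07, limma adjusted p = 0.00214), a fold of 1.69, and 12.7% of all tested genes had a larger rise. It was called in each of the 8 fits that left out 1 array (0.68 to 0.84). Without ZnO 16 replicates 2 and 3 it was the only member still called, at 0.58 (adjusted p = 0.0152). Casein kinase 2, known to phosphorylate ZIP7 in human cells, had 1 of its 3 subunit genes called: Csnk2a2, a catalytic subunit, rose by 0.36 (SE 0.11, adjusted p = 0.0244) with 75th percentile scaling, a smaller size than the -0.75 of the median gene without scaling.

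Slc39a11, placed on the Golgi and in the nucleus in mouse, was called on 1 of its 2 probes, and the difference between the probes was not tested. The brighter probe stood at -1.82, -1.68, -1.89 and -1.83 on ZnO 16 replicates 1 to 4, against -2.10, -1.77, -2.29 and -2.19 on ZnO 4 replicates 1 to 4. Only ZnO 4 replicate 2 reached into the ZnO 16 range. The difference of 0.28 (SE 0.17, 95% interval -0.09 to 0.65) did not pass (adjusted p = 0.200). The dimmer probe stood at -2.09, -1.15, -2.07 and -2.09 at ZnO 16, against -2.64, -2.55, -2.47 and -2.42 at ZnO 4. With every probe tested as a feature of its own, where 41.7% of 15587 probes were called and 20% were called higher, it differed by 0.67 (SE 0.23, adjusted p = 0.0391). That difference depends on ZnO 16 replicate 2, the high value of its group: without that array it was 0.44 (adjusted p = 0.0675). The call was also lost without any 1 of the ZnO 4 arrays (0.63 to 0.70, adjusted p of 0.0514 to 0.0920).

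Slc39a1, a plasma membrane importer of most tissues, rose on the brighter of its 2 probes. The level there was 3.83, 3.91, 4.04 and 3.47 on ZnO 16 replicates 1 to 4, against 3.16, 3.36, 3.02 and 3.35 on ZnO 4 replicates 1 to 4. The doses did not overlap, although ZnO 16 replicate 4 lay only a little above the highest ZnO 4 array. Slc39a1 rose by 0.59 (SE 0.15, 95% interval 0.27 to 0.91, adjusted p = 0.00920), a fold of 1.50. It was called with each array left out in turn (0.51 to 0.70), and without ZnO 16 replicates 2 and 3 it was 0.42 (adjusted p = 0.0645). The dimmer Slc39a1 probe, also well above background on all 8 arrays, was not called, and the difference between the probes was not tested. It stood at -2.09, -1.53, -1.67 and -2.43 on ZnO 16 replicates 1 to 4, against -2.03, -1.89, -2.30 and -1.48 on ZnO 4 replicates 1 to 4. The doses overlapped fully, and the difference was -0.01 (95% interval -0.55 to 0.53, adjusted p = 0.982 with every probe tested). The mean of both probes differed by 0.29 (adjusted p = 0.223), so the call rests on the brighter probe. A gap of this size between probes was common: among 1443 genes with at least 2 tested probes the median range of their differences was 0.49, and 41.9% had a range of at least the 0.60 of Slc39a1. Which transcripts each probe detects was not tested.

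Slc39a4, the intestinal zinc importer whose human form is mutated in acrodermatitis enteropathica, was above background in these cells. Its level was -0.04, 0.43, 0.61 and -0.16 on ZnO 16 replicates 1 to 4, against -0.35, -0.51, -0.42 and -0.34 on ZnO 4 replicates 1 to 4. All ZnO 16 values were above all ZnO 4 values, but the spread was wider at ZnO 16 (SD 0.37) than at ZnO 4 (SD 0.08), and the 2 dimmer arrays were again the higher ones. Slc39a4 rose by 0.61 (SE 0.18, 95% interval 0.22 to 1.01, adjusted p = 0.0198), a fold of 1.53. Without ZnO 16 replicates 2 and 3 the difference was 0.30 (adjusted p = 0.119). Leaving out ZnO 16 replicate 2 or 3 or ZnO 4 replicate 2 alone ended the call (0.48 to 0.58, adjusted p of 0.0505 to 0.0524), as did normexp background correction on the raw median signals (0.31, adjusted p = 0.121).

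**Figure D2:**
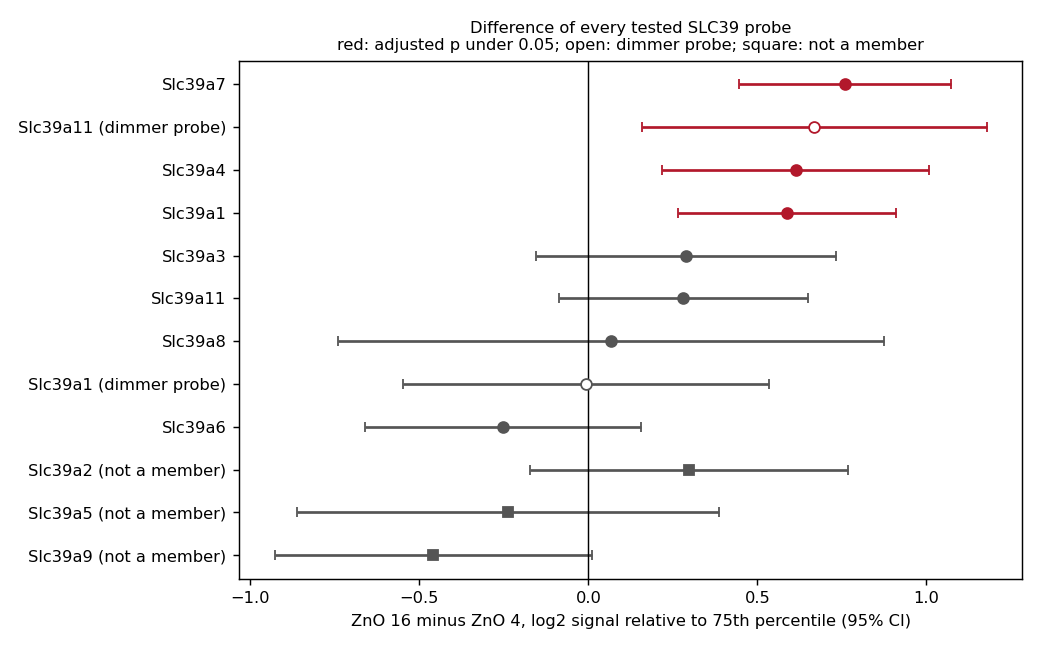
Difference of every tested SLC39 probe (x axis, ZnO 16 minus ZnO 4, log2 signal relative to the 75th percentile) with its 95% interval, in the fit with each probe as its own feature. Red marks an adjusted p under 0.05, open symbols the dimmer probe of a gene and squares genes outside the set. The red intervals of Slc39a7, Slc39a4, Slc39a1 and the dimmer Slc39a11 probe lie above 0, while the dimmer Slc39a1 probe sits at -0.01.

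Slc39a3, Slc39a6 and Slc39a8, importers of the plasma membrane, did not pass the test. For Slc39a3 the ZnO 16 values split, with 2.51 and 2.62 on replicates 2 and 3 and 1.88 and 1.70 on replicates 1 and 4, against 1.96, 1.97, 1.75 and 1.88 on ZnO 4 replicates 1 to 4. Replicates 2 and 3 of ZnO 16 thus lay above the ZnO 4 range and the others within or below it. The difference was 0.29 (SE 0.20, 95% interval -0.16 to 0.73, adjusted p = 0.273), and -0.10 without ZnO 16 replicates 2 and 3.

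Slc39a6 was the 1 tested member with a negative difference. Its level was -1.23, -1.88, -1.71 and -1.56 on ZnO 16 replicates 1 to 4, against -1.20, -1.66, -1.30 and -1.21 on ZnO 4 replicates 1 to 4. The doses overlapped, and the difference was -0.25 (SE 0.19, 95% interval -0.66 to 0.16, adjusted p = 0.294). Its relative Slc39a10 had no matched probe.

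Slc39a8, known as an NF-kB target in human macrophages, varied most between replicates. Its level was -2.32, -2.98, -2.09 and -1.75 on ZnO 16 replicates 1 to 4, against -1.60, -3.31, -2.24 and -2.26 on ZnO 4 replicates 1 to 4. The array numbered 2 was the lowest at each dose. The difference was 0.07 with a 95% interval of -0.74 to 0.88 (adjusted p = 0.896), which is wide enough to hold a rise as large as that of Slc39a7. On its dimmest arrays the raw Slc39a8 spot was 1.50 times its local background at ZnO 16 and 2.21 times at ZnO 4. Relative to the rest of the array Rela, the NF-kB subunit p65, rose by 0.70 (SE 0.23, adjusted p = 0.0295), and Nfkb1 differed by -0.20 (adjusted p = 0.421). The 0.70 of Rela is smaller in size than the -0.75 of the median gene without scaling. The Rela level was 0.82, 1.82, 1.65 and 0.93 on ZnO 16 replicates 1 to 4, against a mean of 0.60 at ZnO 4. The dimmer ZnO 16 arrays, replicates 2 and 3, were thus the higher ones.

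Slc39a14, known in mouse for uptake of zinc, iron and manganese, could not be measured. Its processed signal was 12.1, 4.45, 5.49 and 11.5 on ZnO 16 replicates 1 to 4, against 14.5, 13.3, 14.5 and 13.6 on ZnO 4 replicates 1 to 4. None of the 8 arrays had this probe well above background, so it entered no test, and no fold is given.

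The rises of the 3 called members are relative to the rest of the array. Before scaling, the processed signal of Slc39a7 was 618, 344, 410 and 684 on ZnO 16 replicates 1 to 4, against 540, 358, 540 and 565 on ZnO 4 replicates 1 to 4. These values overlapped, with means of 514 ± 163 at ZnO 16 and 501 ± 96.2 at ZnO 4 (SD, n = 4 each). Slc39a1 (3727 ± 1322 at ZnO 16 and 4016 ± 620 at ZnO 4) and Slc39a4 (299.6 ± 71.2 at ZnO 16 and 330.3 ± 78.3 at ZnO 4) overlapped likewise. Without scaling between arrays 0 members were called, and the differences were 0.004 for Slc39a7, -0.14 for Slc39a4 and -0.17 for Slc39a1, in data whose median gene differed by -0.75. Relative to that median they were 0.75, 0.61 and 0.58. Scaling subtracts 1 value per array, so these lie near the scaled values by construction and add no support to them. The share of all calls that were higher was 47.6% after 75th percentile scaling, 63.3% after median scaling, 58.2% with normexp, 4.95% without scaling and 4.38% with spike-in scaling.

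**Figure D3:**
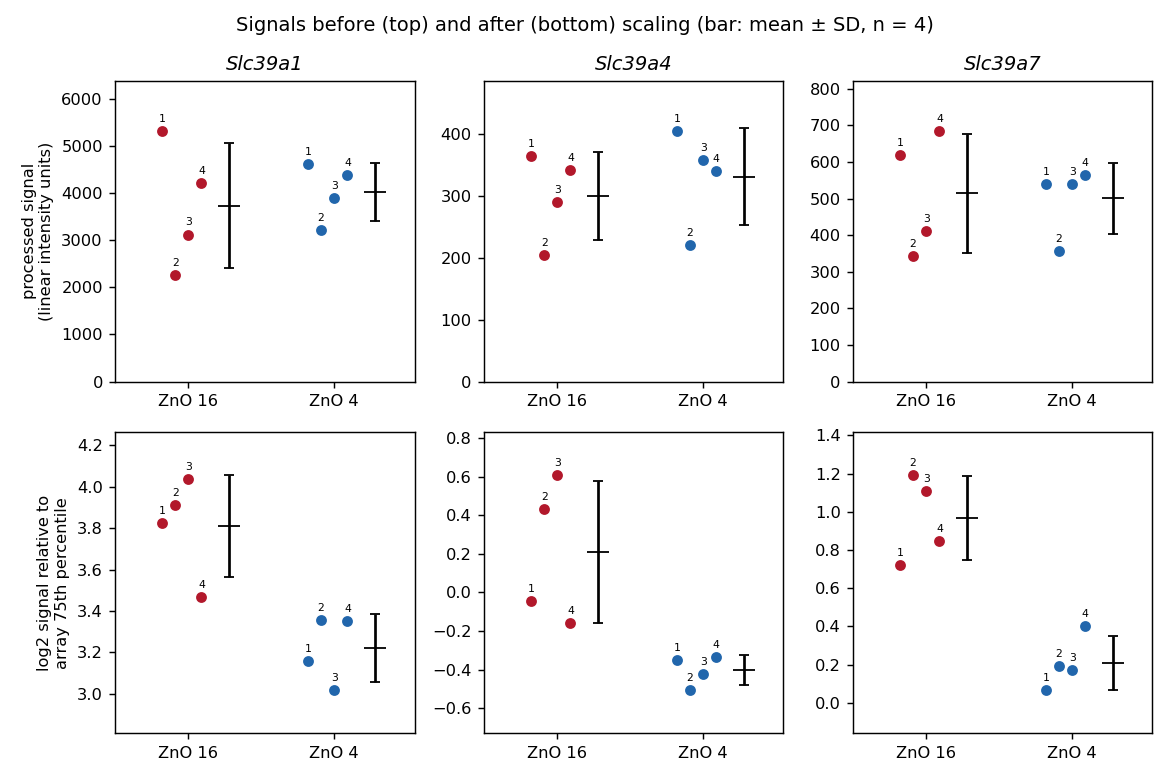
Processed signal in linear intensity units (top) and log2 signal with the array's 75th percentile at 0 (bottom) for the 3 called members, with ZnO 16 (red) left of ZnO 4 (blue), replicate numbers beside the points and mean ± SD as bars (n = 4). The doses overlap in the top row and not in the bottom row.

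Spike-in RNAs, added in set amounts by the labelling kit, also differed between the 2 slides on the same relative scale. Of 7 spike-in probes well above background on all arrays, 5 were higher on the ZnO 16 slide, by 1.102 to 1.603, and 2 were lower, at -0.21 and -0.69. A pair of these 5 stood at 0.49 and 1.63 on the ZnO 16 slide, against -1.11 and 0.41 on the ZnO 4 slide, differences of 1.603 and 1.21. The rises of Slc39a7, Slc39a4 and Slc39a1 are smaller than these. On this scale the -0.75 by which the percentile differed is subtracted from every difference, for members and spike-ins alike. Scaling to the spike-ins subtracts the mean over the spots of these 7 probes, which did not move together. With it the median gene differed by -0.79, 0 members were called, and the 7 members' differences ran down to -1.05 with none above 0. The direction of the 3 called genes is therefore a statement about their place among the genes of the array. Whether the amount of their RNA in a cell changed cannot be told from these data.

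**Figure D4:**
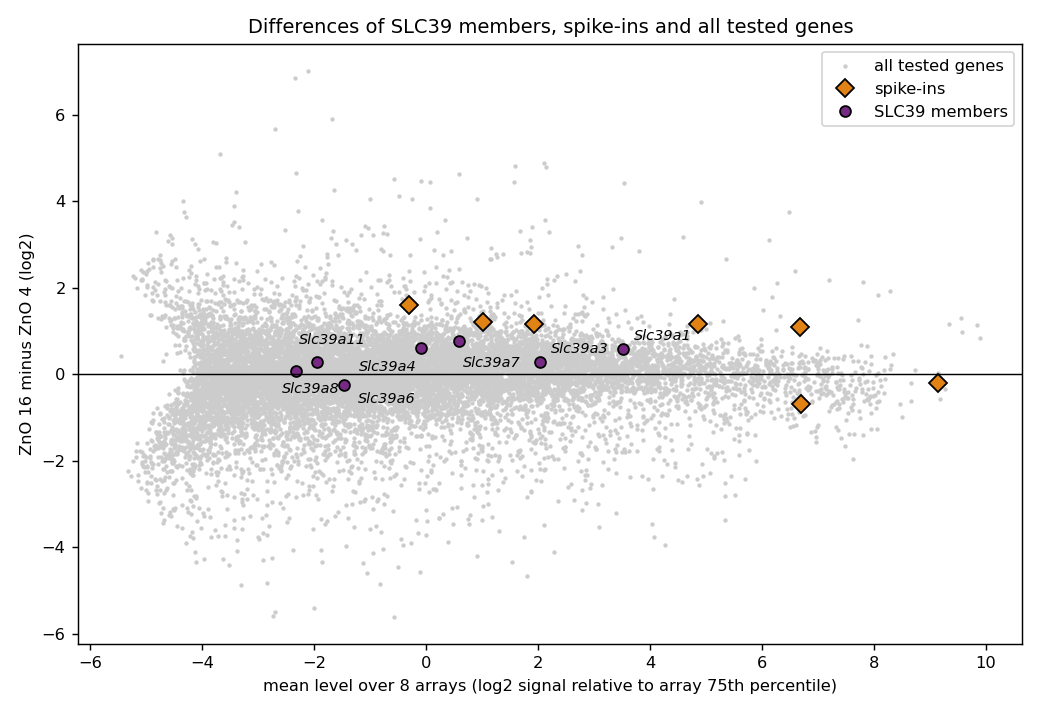
Difference between doses (y axis, ZnO 16 minus ZnO 4, log2) against mean level over the 8 arrays (x axis, log2 signal relative to the 75th percentile) for all 13474 tested genes (grey), the 7 tested SLC39 members (purple) and the 7 bright spike-ins (orange). The members lie between -0.25 and 0.76, and 5 of the spike-ins lie above all of them.

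The genes whose profiles over the 8 arrays came nearest to those of the called members were found among 7856 named genes, as the root mean square distance of log2 levels after each gene's own mean was taken off. For Slc39a7 they were Flna (distance 0.06, difference 0.76), which encodes the actin crosslinker filamin A, Scrn2 (0.06, 0.73) and Hspbp1 (0.06, 0.84), an HSP70-binding protein. For Slc39a4 they were Trmt44 (0.09, 0.62), Smpd2 (0.09, 0.68) and Ap5z1 (0.09, 0.71). For Slc39a1 they included Fxyd5 (0.06, 0.57) and Pdlim4 (0.07, 0.61). No other zinc transporter was among the genes named here, and with 7856 candidates nothing is read from that. The similar differences follow from choosing the nearest profiles.

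The other SLC39 genes with probes gave 0 calls among 3 tested. Slc39a2 differed by 0.30 (adjusted p = 0.286), Slc39a5 by -0.24 (adjusted p = 0.527) and Slc39a9, a Golgi and plasma membrane transporter, by -0.46 (95% interval -0.93 to 0.01, adjusted p = 0.107). Slc39a12 stayed at background on all 8 arrays. Of 10 SLC30 exporters 5 were tested and 1 rose relative to the rest of the array. Slc30a1, which carries zinc out across the plasma membrane, stood at 1.03 ± 0.15 at ZnO 16 and 0.67 ± 0.04 at ZnO 4. The difference of 0.35 (SE 0.12, adjusted p = 0.0331) is smaller in size than the -0.75 of the median gene without scaling. The direction of Slc30a1 is therefore a statement about its place among the genes of the array. Of the metallothioneins and Mtf1, 3 were tested, 0 were higher and 1 was lower. Mt1 stood at 6.59 ± 0.21 at ZnO 16 and 7.19 ± 0.27 at ZnO 4 (-0.61, adjusted p = 0.0159), while Mt2A differed by -0.10 (adjusted p = 0.566) and Mtf1, which encodes the zinc sensor itself, by 0.31 (95% interval -0.68 to 1.31, adjusted p = 0.607).

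The calls in these lists, in those that follow, and in the casein kinase 2 and marker lists above stand beside the 41.7% of all tested genes that were called. Nothing particular to a list is read from its count. Among 12 genes of other metal transport 9 were tested, 2 were higher and 2 lower. Slc11a1, the divalent metal transporter of the phagosome, rose by 0.98 (SE 0.18, adjusted p = 0.00211), and Slc41a3, of a magnesium transporter family, by 0.85 (SE 0.27, adjusted p = 0.0298), although its doses overlapped. The copper pump gene Atp7b was not well above background on any ZnO 16 array and was at least 1.45-fold lower there. It entered the test only through ZnO 4, where it was high, so its place among the lower genes is no support for a change. The other lower gene was Slc31a2, a copper transporter family member, which fell by 0.40 (adjusted p = 0.0381) and was named after its value was seen. The set of 6 factors known to act on Slc39 genes in other systems had 2 members higher and 1 lower. Stat3, which acts on slc39a6 in zebrafish, stood at -0.54, -0.52, -0.33 and -0.36 on ZnO 16 replicates 1 to 4, against 0.9998, 0.99, 1.096 and 1.23 on ZnO 4 replicates 1 to 4. It fell by 1.52 (SE 0.12, adjusted p = 7.65e-06). Klf4, which acts on Slc39a4 in mouse intestine, rose by 0.81 (SE 0.19, adjusted p = 0.00733), and Rela is described above. Atf4 (0.20, adjusted p = 0.392) and Atf6 (0.33, adjusted p = 0.0838), which act on human SLC39A14, did not pass.

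**Figure D5:**
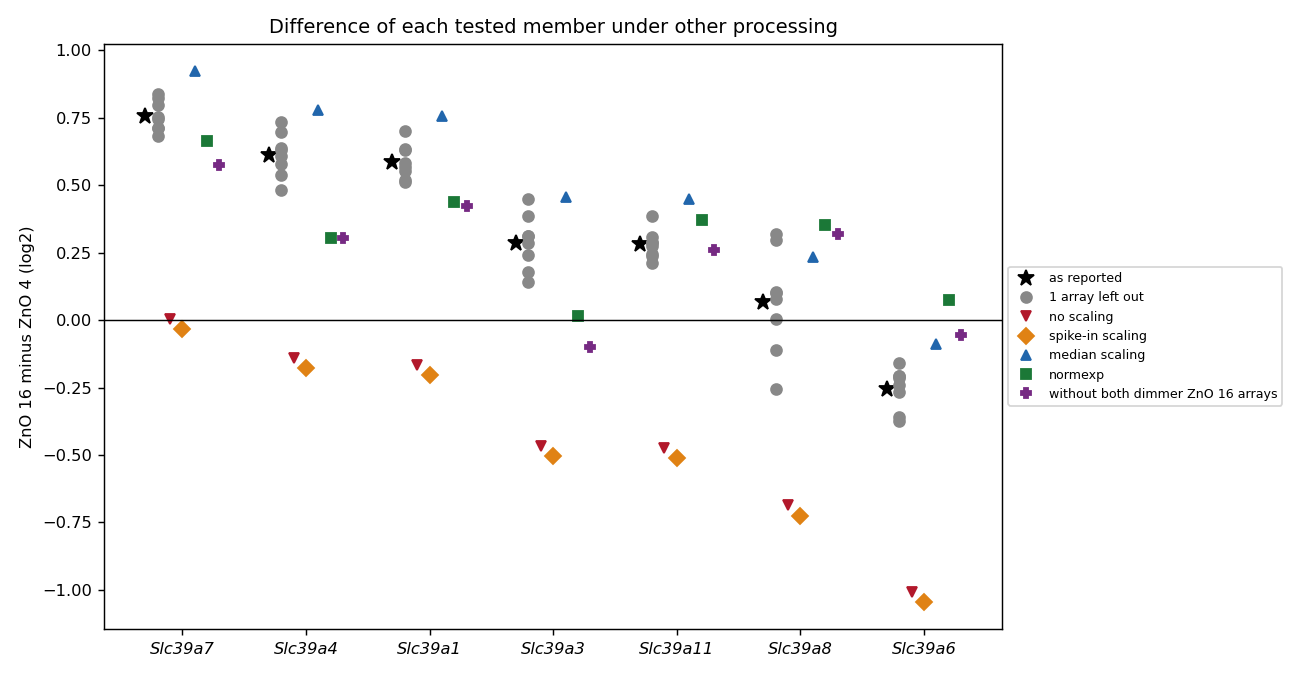
Difference of each tested member (y axis, ZnO 16 minus ZnO 4, log2) as reported (star), with 1 array left out (grey) and under other scalings, normexp or without both dimmer ZnO 16 arrays (coloured symbols). The symbols for no scaling and spike-in scaling lie at or below 0.004 for every member, and for Slc39a7, Slc39a4 and Slc39a1 the others lie above 0.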

How the data were processed

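Per the labels' protocols, Cy3-labelled cRNA was hybridised to 1-colour Agilent arrays, 1 per sample. The deposited intensity values came from Feature Extraction (Agilent, version 11.0.1.1 in the submitters' processing notes) and, per the file headers, comprise a processed signal, background-subtracted and detrended within each array and not scaled between arrays, with raw median intensities and 0 or 1 flags. Per the file headers the design names another genome build than the gene table, which served for names only: accessions matched without versions gave a symbol for 21109 probes (46.29%).

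Processed signals were put on the log2 scale, the 75th percentile of an array's non-control spots was subtracted, outlier spots were set to missing, and the brightest passing probe stood for a gene. Tests used limma (version 3.58.1, R 4.3.3; lmFit, eBayes with an intensity trend, two-sided, Benjamini-Hochberg over all tested genes). The scripts were tested on simulated data in which 200 of 13474 genes were changed. For changes of 0.5, 1, 2 and 3 on the log2 scale, 8%, 34%, 92% and 98% were recovered. Fewer genes were changed there than were called here, so these shares do not carry over to the members. Where no array of a dose had a probe well above background, the fold is a bound: the brighter dose's mean over the dimmer dose's mean, taking on every dim array either the probe's value or the lowest signal flagged as well above background there, whichever was higher. The number of arrays limits precision. Alternatives covered scaling, background correction, filters, probe choice, masked areas, a replicate block and left-out arrays. The masked areas were blocks of 16 by 16 spots where an array differed from its dose by over 0.5. The genes and lists were chosen with earlier results of these data known. Named were all members, 3 zinc readouts (Mt1, Mt2A and Slc30a1), at most 3 called genes per list and the 3 nearest profiles per called member (1 of those for Slc39a1 is not reported here); non-called list genes named beside them were added after their values were seen.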

Additional observations from a re-analysis of the deposited data

Results flagged for a closer look

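In the dimmer Slc39a11 probe, ZnO 16 replicate 2 stood far from the other arrays of its dose, at -1.15 where the other ZnO 16 arrays were between -2.09 and -2.07. It was the only such value among 24 groups of 4 arrays examined (12 SLC39 probes at each dose), and chance flags about 1 in 20. Its processed signal was 67.8, between the 45.3 of ZnO 16 replicate 3 and the 89.7 of ZnO 16 replicate 4. The brighter Slc39a11 probe stood at -1.68 on the same array. The cause was not tested.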

How the results depend on the processing

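The count of called members was 3, and 2 to 3 with 1 array left out. It was 3 with the replicate number as a block, and the block changed no member's call. Correlations of deviations between same-numbered arrays were 0.25, 0.40, -0.22 and -0.03 for numbers 1 to 4. Differently numbered arrays gave -0.34 to 0.21. Whether the numbers pair the arrays cannot be told from so few values. The count was 0 without scaling, 0 with spike-in scaling and 1 without both dimmer ZnO 16 arrays, an alternative chosen after seeing the data. Over all genes 5615 were called, and 4419 to 5578 with 1 array left out. Without scaling the sign turned for Slc39a1 (-0.17), Slc39a4 (-0.14), Slc39a3 (-0.47), Slc39a11 (-0.47) and Slc39a8 (-0.69), and with spike-in scaling for Slc39a1 (-0.20), Slc39a4 (-0.18), Slc39a7 (-0.034), Slc39a3 (-0.50), Slc39a11 (-0.51) and Slc39a8 (-0.73). The signs of members not called as reported also turned in single settings: Slc39a6 with normexp (0.074), Slc39a8 without ZnO 16 replicate 4 (-0.11) or ZnO 4 replicate 2 (-0.25; range with 1 array left out -0.25 to 0.32), and Slc39a3 without both dimmer arrays (-0.10). Slc39a3 was called with median scaling (0.45, adjusted p = 0.0304). The cause was not tested. Masking areas where an array stood low or high left the 3 calls, and no SLC39 probe lay in such an area. Signal over background limits Slc39a14, Slc39a12 and the lower values of Slc39a8.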
